A study of Homo sapiens with 7 samples.

Results

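MiR-31 and miR-335 are microRNAs known as suppressors of metastasis, and they were followed here in 7 tumor cell lines that differ in how widely they spread in mice. They were chosen by name for that role, and are 2 of the 377 human microRNAs with an assay on the card. Each has 1 assay and 1 well per card. The card was the TaqMan Human MicroRNA Array A, a quantitative PCR plate with 1 assay per well, and 1 card was run per line. Its 384 wells held 381 assays, and only the small RNA U6 was repeated, in 4 wells. The lines derive from MDA-MB-435-GFP, an established human tumor line that stably expresses green fluorescent protein. It was long used as a model of breast cancer, while later genotyping placed it with a melanoma line. Cells were injected into the tail vein of athymic female mice. In 1 animal, cells recovered from visible lung metastases gave the oligometastatic L1-R1 line, and cells from the rest of the same lung, free of visible metastases, gave the polymetastatic L1Mic-R1 line. A second passage gave the 3 oligometastatic lines called L1-R2 (4T, 3T and 8T) and the 4 polymetastatic lines called L1Mic-R2 (numbered 2T, 3T, 7T and 8T), each from the lung of a different animal, and grown under G418 to select the tumor cells. All 7 thus share the parental line, the label and the passage through mouse lung. The parental line was not analysed here.

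A microRNA is a short RNA that guides a silencing complex to messenger RNAs, mostly through its seed, bases 2 to 8, which pairs with sites in the target. MiR-31 restrains invasion and colonization of breast cancer cells in experimental models, where it lowers integrin alpha 5, radixin and RhoA. MiR-335 was described as lost in metastatic breast cancer cells, together with miR-126 and miR-206, and it represses the transcription factor SOX4 and the matrix protein tenascin C. The question asked of these lines is whether the amount of either microRNA differs between the oligometastatic and the polymetastatic lines. The L1-R2 lines descend from L1-R1 and the L1Mic-R2 lines from L1Mic-R1, so that metastatic state and founder line cannot be told apart. The p-values below compare these lines and do not extend to other founders.

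The mature sequences are shown because each assay reads 1 mature strand, the 5p arm under the older names used on the card. They are RefSeq sequences (GRCh38.p14), written 5′ to 3′, with the seed in capitals.
miR-31: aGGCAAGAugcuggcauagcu
miR-335: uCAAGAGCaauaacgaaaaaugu
MiR-31 is 21 bases long with 52.4% G and C, and miR-335 is 23 bases long with 30.4%. The seeds differ, and each belongs to 1 of the 2370 mature names in the table, its own, so that neither member has a seed relative among them. The hairpins from which they are cut are given next, with the measured strand in capitals, to show where that strand lies.
MIR31 hairpin: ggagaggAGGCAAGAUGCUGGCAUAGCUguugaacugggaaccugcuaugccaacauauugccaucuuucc
MIR335 hairpin: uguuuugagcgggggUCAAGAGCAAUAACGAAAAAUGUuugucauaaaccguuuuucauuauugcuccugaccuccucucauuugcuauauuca
MIR31 lies at chr9:21512115-21512185 on the minus strand, within the span of the long noncoding RNA gene MIR31HG. MIR335 lies at chr7:130496111-130496204 on the plus strand, within the span of MEST, an imprinted gene expressed from the paternal allele, and is carried by one of its introns. No genome of these cells was read, and the positions are those of the reference.

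The measurement is the threshold cycle (Ct), the number of PCR cycles a well needs before its fluorescence passes 0.3. Each cycle is about a doubling, so that Ct is a log2 scale on which a low value means much RNA, and 40 marks a well that never passed, called Undetermined. A Ct below 38 was called detected. Between 160 and 184 of the 377 microRNAs were detected per line, and 181 were detected in at least 3 lines and tested. The cards numbered 1 to 3 held the L1-R2 lines and those numbered 4 to 7 the L1Mic-R2 lines, so that card order and group cannot be told apart. The plant microRNA ath-miR159a, a negative control, was Undetermined on all 7 cards. The melanocyte microRNAs miR-204 and miR-211 had a Ct in 7 lines (25.8 to 26.9) and in 5 lines (27.5 to 33.3), and miR-211 was Undetermined in L1Mic-R2 lines 2T and 8T. The log2 fold change of miR-204 was -0.59 (adjusted p = 0.208 from limma) after quantile normalization and 0.07 relative to RNU44 and RNU48. Of 6 microRNAs of fibroblasts, 5 (miR-143, miR-145, miR-199a-5p, miR-199b-5p and miR-214) had no Ct in any line. The other, miR-199a-3p, had a Ct in 3 lines: 35.88 in L1-R2 line 8T, 36.08 in L1Mic-R2 line 2T and 36.19 in L1Mic-R2 line 7T. Its log2 fold change was 0.39 (adjusted p = 0.895 from limma). Of 6 microRNAs of blood cells, miR-451 and miR-142-5p had no Ct in any line. MiR-142-3p and miR-486-5p had a Ct in 2 lines each, and miR-150 and miR-223 in 5 each. The log2 fold change of miR-150 was -3.35 (adjusted p = 0.22 from limma) and that of miR-223 was 3.07 (adjusted p = 0.245). At an adjusted p under 0.05 from limma with Benjamini-Hochberg adjustment, 9 of the 181 tested microRNAs differed between the groups (4.97%). Of the 181, 6 were called higher (3.31%) and 3 lower (1.66%) in L1Mic-R2. MiR-31 was tested and was not among the 9. MiR-335, detected in 1 line, was not tested and could not be among them.

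MiR-31 was present in all 7 lines at a nearly equal raw Ct. In L1-R2 it was 27.15 in line 4T, 27.27 in line 3T and 27.26 in line 8T. In L1Mic-R2 it was 26.48 in line 2T, 27.33 in line 3T, 27.32 in line 7T and 27.18 in line 8T. The groups overlapped, and the 6 lines other than L1Mic-R2 line 2T lay within 0.18 cycles of each other. Line 2T had the most miR-31, 0.67 cycles below the nearest line. Oligometastatic lines averaged 27.23 ± 0.06 (SD, n = 3) and polymetastatic lines 27.08 ± 0.40 (SD, n = 4), a difference below the SD of the second group (exact two-sided permutation test, p = 0.886, where 0.0286 is the smallest p that 3 lines against 4 allow). In bulk RNA, a lower level in every cell and fewer cells with the microRNA cannot be told apart. The only wells repeated on a card, the 4 of the small RNA U6, had an SD between 0.027 and 0.098 cycles. That SD covers pipetting and amplification on a card, but not reverse transcription or the difference between cards.

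**Figure D1:**
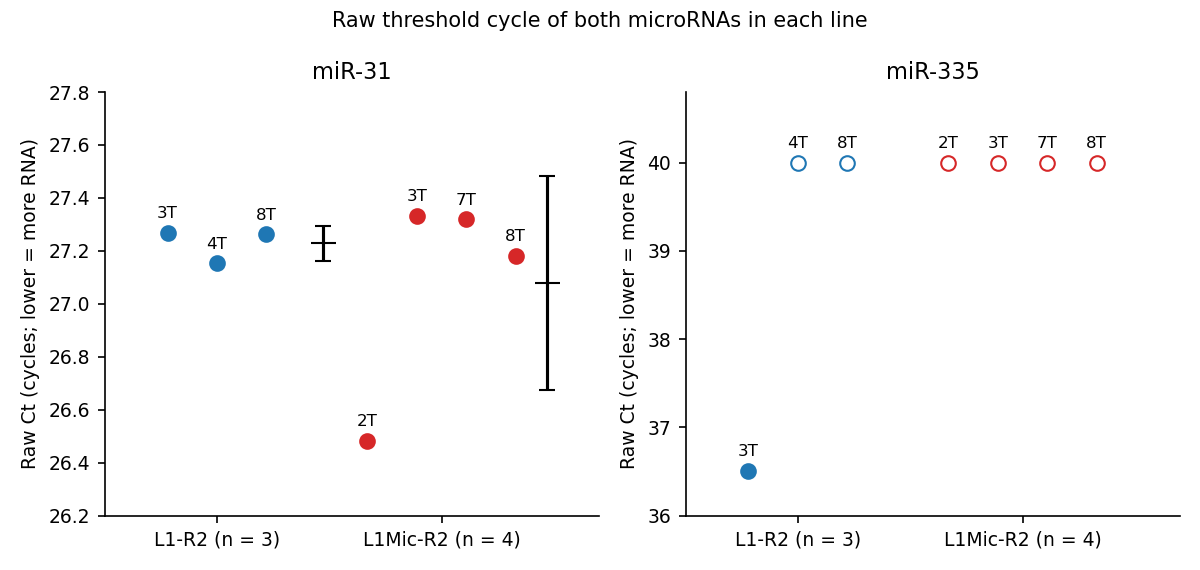
Raw Ct (vertical axis, cycles) of miR-31 and miR-335 in the 3 L1-R2 lines (blue) and the 4 L1Mic-R2 lines (red), each point 1 line with its number. Black bars give the mean and SD of miR-31, and open circles at 40 are Undetermined wells. MiR-31 spans 26.48 to 27.33 with both groups overlapping, and miR-335 has a Ct in L1-R2 line 3T alone.

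The study's methods use quantile normalization, which gives every card the same distribution of Ct, and it was followed for the tests. Normalized, miR-31 in L1-R2 stood at 27.70 (4T), 27.08 (3T) and 27.27 (8T). In L1Mic-R2 it stood at 26.40 (2T) and 26.95 (8T), and at 27.44 in both 3T and 7T, where it had the same rank on the card. The groups again overlapped. The oligometastatic mean was 27.35 ± 0.32 (SD, n = 3) and the polymetastatic mean 27.06 ± 0.50 (SD, n = 4). As a log2 fold change, polymetastatic over oligometastatic, miR-31 differed by 0.29 (standard error 0.32, 95% interval -0.49 to 1.08, adjusted p = 0.675 from limma), and an exact two-sided permutation test gave p = 0.457. In folds, the interval runs from 0.711 to 2.11, so that a fall of miR-31 below 0.711 of the oligometastatic level lies outside it. Of the absolute log2 fold changes of the 181 tested microRNAs, that of miR-31 ranked 123 from the largest, and their median was 0.486.

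The estimate rested in large part on 1 line. Without L1Mic-R2 line 2T the log2 fold change of miR-31 fell to 0.05 (adjusted p = 0.927 from limma), on raw Ct without that line it was -0.05, and relative to the average of the detected microRNAs without that line it was 0.20. With each of the other lines left out it stayed between 0.14 and 0.43.

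The scale moved the size but not the call. The log2 fold change of miR-31 was 0.15 for raw Ct, 0.20 relative to U6, 0.38 relative to the average of the 135 microRNAs that every line expressed above the detection limit, and 0.95 relative to the mean of the small nucleolar RNAs RNU44 and RNU48. The adjusted p from limma was 0.33 or more on each of these. The last scale moves every microRNA, since RNU44 itself had a raw Ct of 24.69 ± 0.96 (SD, n = 3) in the oligometastatic and 25.58 ± 0.34 (SD, n = 4) in the polymetastatic lines, and the median log2 fold change of the tested microRNAs was 0.56 on it. Set against the median microRNA of the same scale, miR-31 was higher in L1Mic-R2 by 0.39 on raw Ct. The difference was 0.39 as well on each scale that subtracts 1 value per card. That equality was fixed in advance, since such a value moves miR-31 and the median alike. After quantile normalization the difference was 0.23. These differences from the median carry no test of their own.

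**Figure D2:**
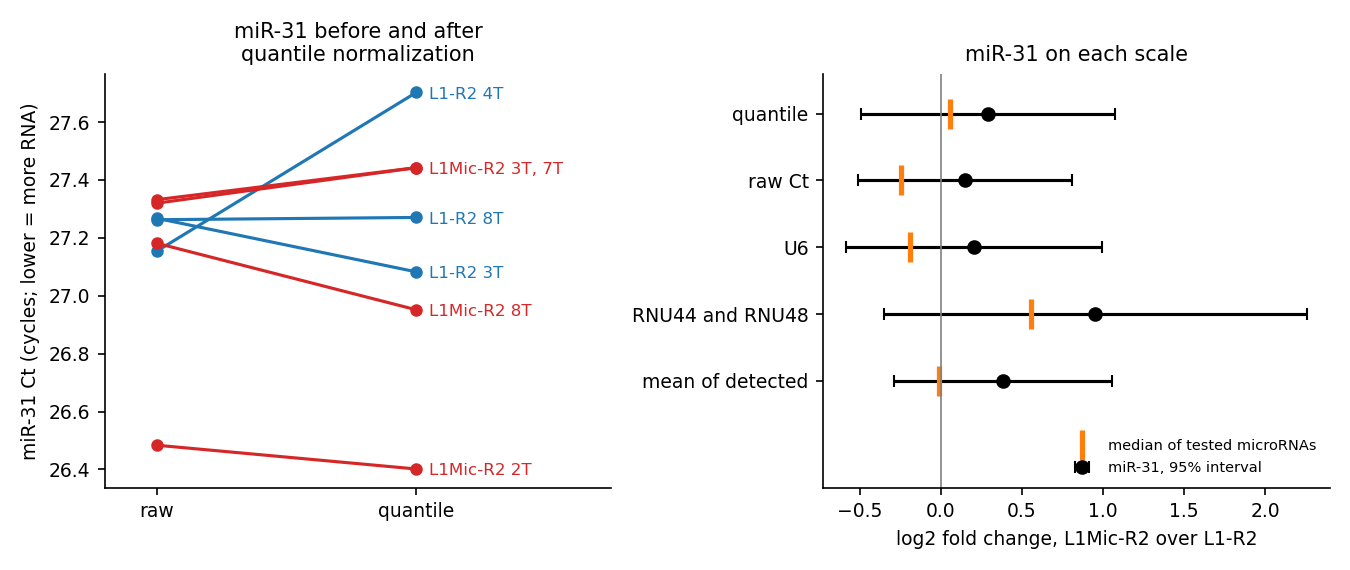
Left, Ct of miR-31 (cycles) in each line before and after quantile normalization, L1-R2 in blue and L1Mic-R2 in red. Right, log2 fold change of miR-31 on 5 scales with 95% intervals from limma, and the median of the 181 tested microRNAs on that scale (orange). The 3 L1-R2 lines lie at 27.15 to 27.27 before normalization and spread to 27.08 to 27.70 after it, and the interval includes 0 on all 5 scales.

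Across lines, miR-31 was among the steadier microRNAs before normalization. The SD of its raw Ct over the 7 lines was 0.298, the 23rd smallest of the 135 microRNAs detected in all 7, whose median SD was 0.509. After quantile normalization its SD was 0.426 and ranked 67, close to the median of 0.431. The widening was greatest in L1-R2, where the SD went from 0.06 to 0.32. MiR-31 ranked between 33 and 47 among the 377 microRNAs by raw Ct, counted from the lowest. That rank also holds the efficiency of each assay, and so is a description of the card and not of molecule numbers.

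MicroRNAs that kept pace with miR-31 were sought by the SD, over the 7 lines, of the difference in raw Ct from miR-31 on the same card. This difference is free of any value subtracted from a whole card. The smallest SD was that of miR-365, 0.179 cycles, followed by miR-92a (0.274), miR-296-5p (0.282) and miR-28-5p (0.301), against a median of 0.595 for 134 microRNAs. The raw Ct of miR-365 in L1-R2 was 29.44 (4T), 29.24 (3T) and 29.52 (8T). In L1Mic-R2 it was 28.98 (2T), 29.34 (3T), 29.59 (7T) and 29.42 (8T). Line 2T thus had the lowest Ct of miR-365 as of miR-31. On normalized Ct, miR-365 and miR-92a remained among the closest 4, while miR-193b (0.255) and miR-24 (0.262) came first. A small SD of a difference is also reached by microRNAs that hardly vary, and these values carry no test.

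MiR-335 had a Ct in 1 of the 7 lines. It was 36.51 in L1-R2 line 3T, and the well was Undetermined in L1-R2 lines 4T and 8T and in all 4 L1Mic-R2 lines. With a Ct in 1 line it fell short of the 3 lines required for the limma fit. Taking 40 for the Undetermined wells, the normalized values averaged 39.04 ± 1.67 (SD, n = 3) over the oligometastatic lines and were 40 in every polymetastatic line (p = 0.429 by exact two-sided permutation). The difference was 0 once oligometastatic line 3T was left out, all remaining wells being Undetermined. A difference between the groups was therefore not detectable with these cards, and an amount of miR-335 below what 40 cycles can read is not excluded in any line.

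The files also list a fluorescence value for each well, without a name. It was at or above the threshold of 0.3 in every well with a Ct and below it in every Undetermined well, on all 7 cards, and so can be read for wells without a Ct. For miR-335 it was 0.966 in L1-R2 line 3T. It was 0.0919 (4T) and 0.0693 (8T) in the other L1-R2 lines, and 0.0448 (2T), 0.0743 (3T), 0.0483 (7T) and 0.0662 (8T) in L1Mic-R2. The wells of the plant control read 0.023 to 0.0865 over the 7 cards. The miR-335 well of L1-R2 line 4T lay above that range, and the control on its own card read 0.023. In L1Mic-R2 line 8T miR-335 also lay above the control of its card (0.0332), though within that range. In the remaining lines with an Undetermined miR-335 well, it lay below the control of its card. Within their own cards the 6 Undetermined wells of miR-335 lay above 67.5% to 91.1% of the Undetermined microRNA wells. For miR-31 the value was 2.38 to 2.88.

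**Figure D3:**
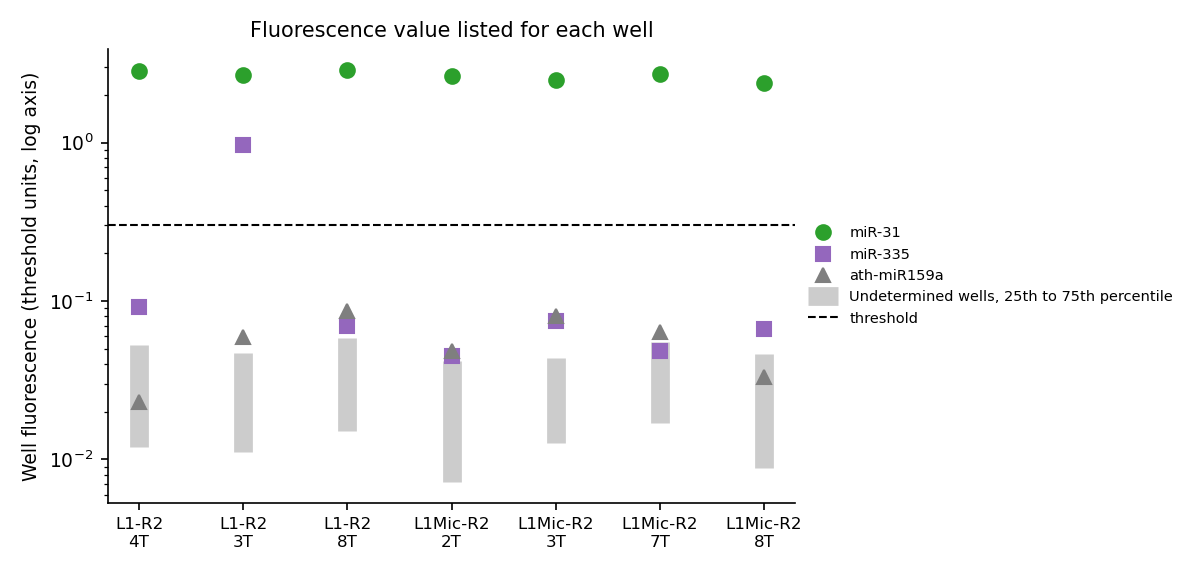
Fluorescence listed for the wells of miR-31 (circles), miR-335 (squares) and the plant control ath-miR159a (triangles) in each of the 7 lines, on a log axis, with the threshold of 0.3 dashed and the interquartile range of Undetermined microRNA wells in grey. MiR-31 stays between 2.38 and 2.88, and miR-335 passes the threshold in L1-R2 line 3T alone (0.966).

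MicroRNAs with a Ct in a single line were counted for comparison. Of the 377 microRNAs, 138 had a Ct in no line and 140 in all 7, and 30, miR-335 among them, had a Ct in 1 line. These 30 had a median Ct of 37.4, and that of miR-335 was the 8th lowest. Line 3T of L1-R2 accounted for 2 of the 30, miR-335 and miR-141 (38.51), the fewest of any line together with L1Mic-R2 lines 2T and 3T. Ct values from 36 to 38, the range of miR-335, numbered 118 over the cards. The same microRNA had a Ct in all 6 other lines for 19.5% of them and in no other line for 13.6%. From 26 to 28 cycles, the range of miR-31, a Ct in all other lines was found for 99.4% of 165 values. Line 3T also had the lowest raw Ct of the epithelial microRNA miR-200c, 30.10 against 32.40 to 35.46 in the other 6 lines. Of the 5 epithelial microRNAs, miR-200a (34.18) and miR-141 were lowest there too, and miR-200b and miR-429 were not. On the log2 scale miR-200b differed between the groups by -1.39, with an adjusted p of 0.176 from limma. Summed over the 5, 40 minus Ct ran from 18.4 to 25.1 in L1-R2 and from 10.4 to 22.9 in L1Mic-R2, and none of the 4 tested passed the adjusted threshold. The part of epithelial RNA in the miR-335 reading was not tested.

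Compared on the same card, the Ct of miR-335 exceeded that of miR-31 by 9.24 cycles in L1-R2 line 3T. In the other lines the Undetermined wells give lower bounds, at least 12.8 and 12.7 cycles in L1-R2 lines 4T and 8T and at least 12.7 to 13.5 in the L1Mic-R2 lines. The differences include the efficiencies of both assays. With 40 for Undetermined wells and on normalized Ct, the groups differed in this measure by 1.26 cycles, L1Mic-R2 higher, and p was 0.114 by exact two-sided permutation. That size rests on the value given to Undetermined wells and on 1 well: it was 0.62 with Ct limited to 38, 0.29 with Ct limited to 35, and 0.43 when oligometastatic line 3T was left out. 

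The surroundings of both hairpins were read from other microRNAs of the card, by reference position. Next to MIR31, miR-491-5p, at 0.796 Mb, had a Ct in all 7 lines, from 32.49 to 33.96. Its log2 fold change was 0.09 after quantile normalization (adjusted p = 0.928 from limma) and negative on raw Ct (-0.43). MiR-876-5p, at 7.35 Mb, was higher in L1Mic-R2 (log2 fold change 3.21, standard error 0.57, adjusted p = 0.0392 from limma), with a raw Ct of 35.83 to 37.24 in L1-R2 and 34.42 to 34.73 in L1Mic-R2. Its log2 fold change was smaller on the other scales, from 2.04 on raw Ct to 2.84 relative to RNU44 and RNU48, and was 0.77 with Ct limited to 35. It was the 1 of 2 tested neighbours of miR-31 to pass, where 4.97% of all tested microRNAs did, and it passed in 6 of 19 alternative fits, 1 of the 7 without a line among them. Of the other neighbours, miR-491-3p had no Ct in any line, and miR-873 and miR-876-3p had one in 1 line each. Next to MIR335, miR-29a and miR-29b, at 0.381 Mb, and miR-182 and miR-183, at 0.726 and 0.721 Mb, were detected in all 7 lines. The raw Ct of miR-29a was 21.24 to 22.10 in L1-R2 and 22.05 to 22.45 in L1Mic-R2. None of the 4 tested neighbours of miR-335 passed the adjusted or the unadjusted threshold of 0.05, and the smallest p were those of miR-182 (log2 fold change -0.45, adjusted p = 0.271 from limma) and miR-29a (-0.39, adjusted p = 0.425). Of the other neighbours, miR-96 had a Ct in 3 lines and miR-490-3p in none. MiR-29b has another copy on chromosome 1, so that its level is not that of 1 locus.

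Other microRNAs described as suppressors of metastasis formed a list for comparison. Of 12 listed, 11 were on the card. MiR-34a, miR-145, miR-148a and miR-205 had no Ct in any line, and 6 entered the fit. None of the 6 passed the adjusted threshold, and at an unadjusted p under 0.05 there was 1 higher and 1 lower in L1Mic-R2 (19.3% of all tested microRNAs passed that threshold). For miR-146a this outcome was fixed by the method, since quantile normalization gave it the same Ct, 19.23, in every line. Its raw Ct was 18.32 to 19.11 in L1-R2 and 19.33 to 20.10 in L1Mic-R2. With limma's trend and robust settings, under which 21 microRNAs passed in all, 2 of the 6 did, miR-126 (adjusted p = 0.0289) and miR-146b-5p (adjusted p = 0.0272). MiR-126, lost together with miR-335 in the breast cancer model and a known endothelial microRNA, had a raw Ct in L1-R2 of 34.50 (4T), 32.46 (3T) and 35.06 (8T). In L1Mic-R2 it was 30.98 (2T), 31.75 (3T), 28.71 (7T) and 32.41 (8T). The groups did not overlap, though oligometastatic 3T and polymetastatic 8T nearly met. On normalized Ct, 35 of the 181 tested microRNAs (19.3%) had groups without overlap, miR-126 among them. Its log2 fold change was 3.44 (standard error 0.98, adjusted p = 0.104 from limma). For miR-146b-5p, which restrains NF-kB signaling, it was -1.14 (standard error 0.31, adjusted p = 0.0953). The median of the 6 was 0.23, with the fixed value of 0 for miR-146a included, against 0.06 for all tested microRNAs. Of 12 metastasis-promoting microRNAs on the card, 9 were tested, with a median of -0.11. MiR-221, which represses the cell cycle inhibitor p27, was the 1 of 9 that passed, beside 4.97% of all tested microRNAs, and was higher in L1Mic-R2 (log2 fold change 2.41, standard error 0.46, adjusted p = 0.0392 from limma). It passed in 6 of 19 alternative fits and in 1 of the 7 without a line. MiR-222, also on the promoting list, did not share this rise. Its log2 fold change was -0.41 (standard error 0.31) and did not pass. The raw Ct of miR-222 was 21.90 to 22.21 in L1-R2 and 22.17 to 23.14 in L1Mic-R2. That of miR-221 was higher, 31.26 to 32.37 in L1-R2 and 29.07 to 30.33 in L1Mic-R2. Differences between these microRNAs and miR-31 were not tested.

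**Figure D4:**
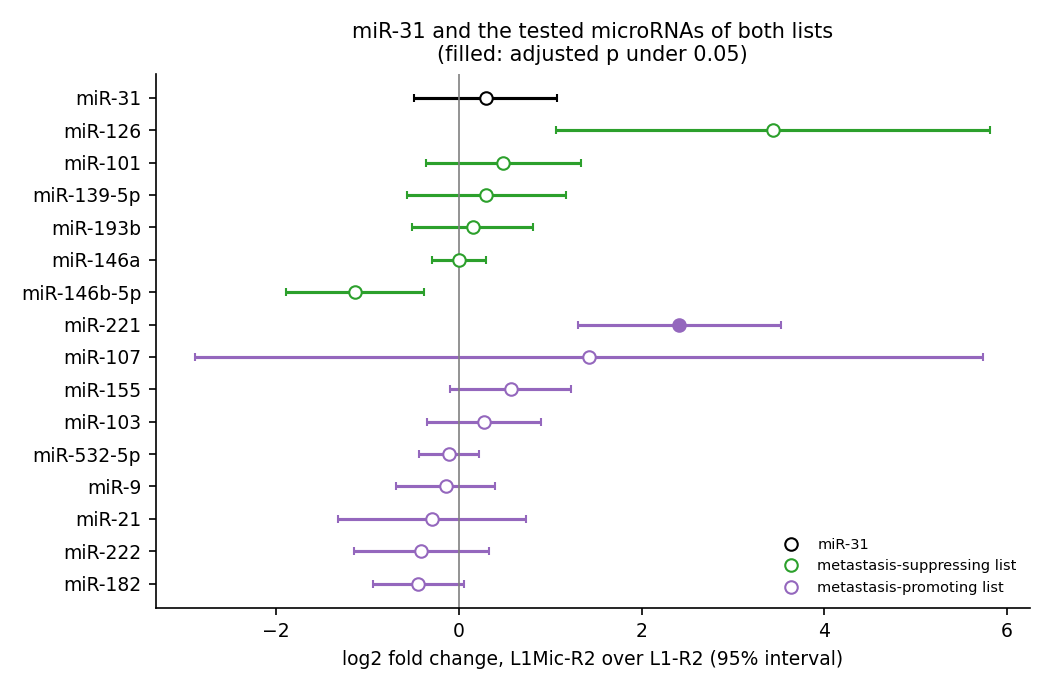
Log2 fold change, polymetastatic over oligometastatic lines, with 95% intervals from limma for miR-31 (black) and the tested members of the metastasis-suppressing (green) and metastasis-promoting (purple) lists, filled where the adjusted p is under 0.05. MiR-31 is at 0.29 and its interval includes 0, miR-126 is the highest of the suppressing list at 3.44, and miR-221 at 2.41 is the only filled point. MiR-146a is at 0 because normalization gave it the same Ct in every line.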

How the data were processed

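Total RNA was extracted with TRIzol, reverse transcribed with Megaplex primers and run on TaqMan Human MicroRNA Array A cards. The values deposited are raw Ct in cycles, imported by the authors with SDS RQ Manager at a threshold of 0.3, together with a fluorescence value per well. Their mean over the 381 assays differed between cards, from 35.32 to 35.89, which quantile normalization would have made equal. Undetermined wells carry 40. Groups and numbers are those of the sample titles. For L1-R2, the file names swap 3T with 4T, both oligometastatic. The labels name a SYBR dye and injection into the mammary fat pad. TaqMan chemistry and the tail vein were taken here from the paper.

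Ct values of 381 assays were quantile normalized over the 7 cards (limma 3.58.1, R 4.3.3). MicroRNAs detected (Ct below 38) in at least 3 lines entered a limma model (lmFit, eBayes) of 40 minus Ct, and p-values were adjusted by Benjamini-Hochberg over all 181. Single values were compared with an exact permutation test over the 35 splits of the lines. The functions were tested on simulated data. Members and lists were chosen with earlier results of these data known. Members of the lists are given with values where the unadjusted p was under 0.05, or for the smallest p where none was. Some further members are given with a Ct or a fold change as well. Markers of blood, stromal, endothelial, epithelial and melanocyte cells were read as well. With 1 card per line, the spread within a group holds both differences between lines and errors of measurement. Alternatives covered normalization, limits on Ct, filters, fits, blocking by line number and leaving out each line.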

Additional observations from a re-analysis of the deposited data

Results flagged for a closer look

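The normalized Ct of miR-29a, a neighbour of miR-335 in the genome, was 22.02 in polymetastatic line 8T, apart from the other 3 lines of its group, which all stood at 22.32 because miR-29a had the same rank on their cards. Its raw Ct did not stand apart in that group (gap over range 0.385). The blood microRNA miR-223 was Undetermined (40) in polymetastatic line 7T, apart from the other 3 lines of its group on raw Ct (35.35 to 36.07) as on normalized Ct. Of 20 microRNAs and control RNAs, 17 varied among the L1Mic-R2 lines on normalized and 19 on raw Ct. In these 36 sets of values 3 stood apart, where chance gives about 1.8, and the scales are not independent. The raw Ct of miR-31 in L1Mic-R2 line 2T came close, with a gap over range of 0.823 against a critical value of 0.829.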

How the results depend on the processing

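Among the alternatives, the limits on Ct, the detection filters and the other fits could not move the estimate for miR-31 and leave its sign untested. With these counted, the log2 fold change of miR-31, 0.29, kept its sign under 12 of 14 alternatives other than single omissions. With each line left out it lay between 0.05 and 0.43. Its adjusted p from limma lay between 0.33 and 0.998 throughout. It reversed to -0.020 under a replicate block by the numbers in the labels, and to -0.050 for raw Ct without L1Mic-R2 line 2T, which was added after the values were seen. Relative to the mean of detected microRNAs without that line, also added then, it was 0.20. For miR-335 the difference of -0.96 became 0 when Ct was limited to 35 and under blocking by file-name numbers, and leaving out single lines gave -1.41 to 0. The group difference of miR-335 minus miR-31, 1.26, lay between 0.43 and 1.76 with single lines left out and was 1.43 within same-numbered lines, 0.62 with Ct limited to 38 and 0.29 with Ct limited to 35.

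Of the 181 microRNAs, 9 had an adjusted p under 0.05. None did after scaling to RNU44 and RNU48 (37 unadjusted), under either block (19 unadjusted by labels, 27 by file names), without the detection filter (36) or in the two-tailed Student test (35). The count was 14 among microRNAs detected in every line and 21 with trend and robust fitting, and 0 to 4 with single lines left out. The 35 at an unadjusted p became 19 under the block by labels and 28 to 39 with single lines left out. MiR-221 and miR-876-5p were positive in all 19 alternatives, and each lost its call in 13 of them, both replicate blocks included (adjusted p = 0.431 for both by labels). MiR-491-5p reversed to -0.43 on raw Ct, -0.37 relative to U6, -0.20 relative to the mean of detected microRNAs, -0.52 under the file-name block, -0.34 without L1-R2 line 3T and -0.15 without L1Mic-R2 line 2T, within a range of -0.34 to 0.45 for single omissions. Relative to RNU44 and RNU48, miR-182 reversed to 0.34, miR-29a to 0.24 and miR-204 to 0.074, and the median of the list of neighbours of miR-335 moved from -0.32 to 0.32. That of the suppressing list lay between -0.21 and 0.59 over the other scales, that of the promoting list between -0.33 and 0.47, and that of the neighbours of miR-31, 1.65 after quantile normalization, between 0.81 and 1.61 on the others. MiR-223 passed in 1 fit, without L1Mic-R2 line 7T (4.19, adjusted p = 0.0025).

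Only numbers 3T and 8T occur in both groups, so either block compares groups within those pairs alone. Deviations from group means correlated at -0.044 and -0.197 within pairs, too few to test a link. Neither block gave a call, but so few pairs cannot test the 9. Precision for miR-335 is limited by Ct near 40 and 1 card per line.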
